A study of Mus musculus with 3 samples.

Results

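Connexins are the proteins of gap junctions. The 7 connexin genes described here are those of the vessel wall and of epithelium: Gja1, Gja3, Gja4, Gja5, Gjb1, Gjb2 and Gjc1. They were taken from 19938 genes that had a probeset of their own on the array. Each of the 7 had 1 such probeset, and the Entrez identifier of each matched the reference gene table. The genes are a part of the connexin family, chosen by where they are used and not by their signal. Earlier results of these data were known when they were chosen. The arrays were run on GFP-positive cells sorted, as 3 samples, from the renal cortex of adult Tie2-GFP mice, called replicates 1, 2 and 3. All samples carried the transgene Tg(TIE2GFP)287Sato on a mixed, mainly CD-1 background, the sex was given as unknown, and none was treated. Each sample came from 1 kidney, with the medulla cut away and glomeruli held back on a 40 µm mesh. The GFP of these mice follows the promoter of Tek (Tie2), which is used by endothelium and also by some blood cells. Nothing in the labels says that the 3 kidneys came from separate animals, whereas the paper describes its samples as independent, so the spread given here is that between these samples.

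A connexin crosses the membrane repeatedly, a ring of connexins makes a hemichannel, and hemichannels of neighboring cells dock to form a channel for ions and small metabolites. In arteries Gja4 (Cx37), Gja5 (Cx40) and Gja1 (Cx43) couple endothelial cells to each other and, at myoendothelial junctions, to smooth muscle, which lets a change in membrane potential spread along the vessel. Gjc1 (Cx45) is known from smooth muscle, and Cx40 also couples the renin cells of the afferent arteriole. Gjb1 (Cx32) and Gjb2 (Cx26) are connexins of secretory and transporting epithelia, and Gja3 (Cx46) is best known from lens fibers.

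The promoters of the 3 endothelial connexins are shown because these genes are the classical gap junction genes of arterial endothelium. The sequences are the 250 bases before the start site, 5′ to 3′ on the strand of the gene, from RefSeq for GRCm38.p6, which may differ from the build behind the array. Gja1 lies on the plus strand (chr10:56377050-56377299), Gja4 on the minus strand (chr4:127314040-127314289) and Gja5 on the plus strand (chr3:97032152-97032401). Capitals mark matches, on either strand, to the ETS motif form AGGAAG, the GC box GGGCGG or the TATA box TATAAA, which do not overlap here.
Gja1: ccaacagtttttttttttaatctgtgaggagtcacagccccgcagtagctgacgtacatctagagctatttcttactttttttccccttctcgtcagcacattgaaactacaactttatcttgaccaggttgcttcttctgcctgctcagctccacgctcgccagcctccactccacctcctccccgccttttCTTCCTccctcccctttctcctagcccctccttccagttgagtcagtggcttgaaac
Gja4: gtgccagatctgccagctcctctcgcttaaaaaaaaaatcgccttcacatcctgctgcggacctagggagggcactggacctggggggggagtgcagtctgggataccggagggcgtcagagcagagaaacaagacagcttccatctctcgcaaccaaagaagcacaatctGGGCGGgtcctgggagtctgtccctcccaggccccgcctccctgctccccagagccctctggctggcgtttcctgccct
Gja5: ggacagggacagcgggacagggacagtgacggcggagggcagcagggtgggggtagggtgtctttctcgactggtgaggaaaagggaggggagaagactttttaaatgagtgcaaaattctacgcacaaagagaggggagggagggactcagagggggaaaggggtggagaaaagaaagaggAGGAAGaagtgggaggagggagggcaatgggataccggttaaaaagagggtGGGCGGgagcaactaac
AGGAAG, a form of the motif bound by ETS factors, which endothelial cells use, was counted in each window. It was found 1 time in the Gja1 window, 1 time in the Gja5 window and 0 times in that of Gja4. Only these exact letters were searched, so 0 matches do not mean that a window lacks other forms of the motif. The GC box, the motif of Sp1, was found 1 time in the windows of Gja4 and of Gja5 and 0 times in that of Gja1. None of the 3 windows held the TATA box. Of all 32851 promoter windows of this length, 29.5% held AGGAAG, 32.7% the GC box and 12.4% the TATA box. These matches describe letters in the sequence. No factor binding was measured here. The reference table held 6 of the 7 genes, and Gjc1 was not among them. The window of Gjb2 held 18 CpG dinucleotides and the windows of the 2 start sites of Gja3 held 26 and 29, whereas those of Gja1, Gja4 and Gja5 held 6, 9 and 7 and the median of all windows was 6. The 4 windows of Gjb1 held from 1 to 10.

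Of the 7 connexins, 5 had a signal above 100 in these sorted cortical cells, and the other 2 lay below it. The 5 were Gja1, Gja4, Gja5, Gjc1 and Gjb2, and the 2 were Gjb1 and Gja3. A signal of 100 is the raw level that the study itself asked of a probeset, in 3 samples, before its comparisons. Here it served otherwise, as a limit for the mean of the deposited log2 signals of these 3 samples. "Above" and "below" here mean an adjusted p under 0.05 in limma's moderated test against this limit, one-sided in each direction and Benjamini-Hochberg adjusted over the 35557 probesets of the table. Over all genes tested, 22.9% were above the limit and 65.0% were below it, against 71.4% and 28.6% of the 7 connexins. The median log2 signal was 8.39 over the 7 connexins and 5.88 over all genes. Because the 7 genes were named with results known, these shares are a description. Of 9 other connexins analysed, 11.1% were above and 88.9% below, so the 71.4% does not hold for the whole connexin family. Probes differ in their response, so signals are set against the limit and not against one another.

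**Figure D1:**
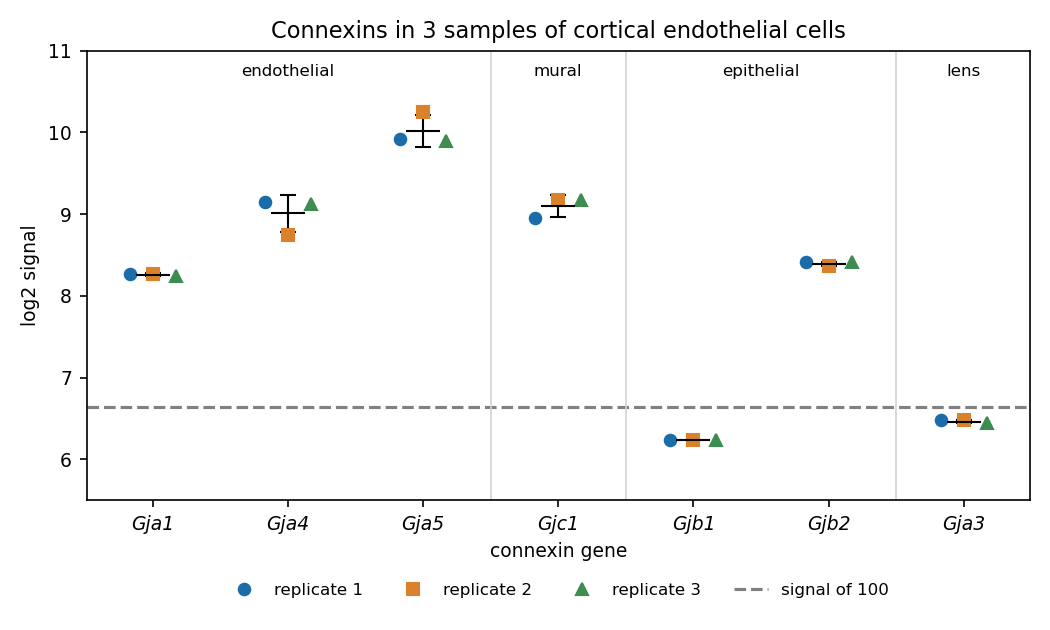
Log2 signal of the 7 connexin genes in the 3 samples of cortical endothelial cells, with a point per replicate, the mean as a horizontal bar and the SD as whiskers; the dashed line is a signal of 100. All 3 points of Gja1, Gja4, Gja5, Gjc1 and Gjb2 lie above the line, and all 3 of Gjb1 and Gja3 lie below it.

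Among the endothelial connexins, Gja5, which encodes Cx40 and marks arterial endothelium, gave log2 values of 9.92, 10.25 and 9.90 in replicates 1 to 3. Replicates 1 and 3 lay close together and replicate 2 was the high sample. Its mean was 10.02 ± 0.20 (SD, n = 3), which is 10.4 times the limit on the linear scale, and it was above the limit (limma, adjusted p = 0.00188). Without replicate 3 the same test gave an adjusted p of 0.0787, so Gja5 was then no longer called. Its mean then stood 3.44 over the limit on the log2 scale, against 3.38 with all samples. A fit to 2 samples has 1 degree of freedom less. The study lists this probeset among those that differ most between its endothelial samples, a list chosen partly on the samples described here.

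Gja4, which encodes Cx37, gave log2 values of 9.15, 8.75 and 9.12 in replicates 1, 2 and 3. Here replicate 2 was the low sample, the reverse of Gja5. The mean was 9.01 ± 0.23 (SD, n = 3), or 5.15 times the limit, and was above it (limma, adjusted p = 0.00483). The adjusted p of Gja4 was 0.0767 without replicate 1 and 0.128 without replicate 3, with a distance from the limit of 2.29 and 2.31 in place of 2.36 on the log2 scale. In linear signal Gja4 ran from 430 to 569 between the samples.

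Gja1, which encodes Cx43, the most widely used connexin, differed little between the samples. Replicates 1 and 2 had a log2 value of 8.27, equal in all 5 decimals, and replicate 3 had 8.24. Its mean, 8.26 ± 0.02 (SD, n = 3), was 3.07 times the limit and above it (limma, adjusted p = 8.76e-05).

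Gjc1, which encodes Cx45, gave log2 values of 8.95 in replicate 1 and 9.17 in both other samples. Replicate 1 was thus the low sample. Its mean was 9.10 ± 0.13 (SD, n = 3), which is 5.49 times the limit, and it was above the limit (limma, adjusted p = 0.00145). Without replicate 3 the adjusted p of Gjc1 was 0.0739, with a distance of 2.42 in place of 2.46 on the log2 scale. The spread of Gja4, Gja5 and Gjc1 was that of ordinary genes of this table: of the 6127 genes with a mean of 100 or more, 68.4% had a smaller SD than Gja4, 65.3% a smaller one than Gja5 and 54.5% a smaller one than Gjc1.

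The epithelial connexins were split. Gjb2, which encodes Cx26, gave log2 values of 8.41, 8.37 and 8.41. The mean was 8.39 ± 0.02 (SD, n = 3), or 3.36 times the limit, and it was above the limit (limma, adjusted p = 0.000116). The SD and p of Gjb2 also rest on 2 equal values. Gjb1, which encodes Cx32, had 6.24 in each of the 3 samples, a signal of 75.6, and was below the limit (limma, adjusted p = 5.31e-08). This p rests on 3 values that are the same in all 5 decimals. When probesets of this kind were given the spread of the others, the adjusted p of Gjb1 was 0.0208.

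Gja3, which encodes Cx46, gave log2 values of 6.48, 6.48 and 6.44. Its mean of 6.46 ± 0.02 (SD, n = 3), a signal of 88.3, lay 0.18 on the log2 scale under the limit and was below it (limma, adjusted p = 0.00225, and 0.0486 with the spread of the other probesets for equal values). The value of Gja3 in replicate 1 was also that of other probesets, 44 in all with its own, and 50 probesets held the same value in replicate 2. The value of Gjb1 was held by 2 probesets in each sample, its own included. Of the connexins above the limit, Gjb2 had values held by 4, 3 and 3 probesets in replicates 1 to 3. The value of Gja5 in replicate 1 and that of Gja4 in replicate 2 were each held by 2. The values of Gja1 and Gjc1 were held by no other probeset of the same sample. With a limit of 50 both Gja3 and Gjb1 were above it, so their calls say that their signal lies between these limits and not that the transcripts are absent.

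All 12 endothelial marker genes were above 100 in the sorted cells, against 22.9% of all genes, among them Pecam1 at a log2 value of 10.07 and Cdh5 at 10.62, and Tek, whose promoter drives the GFP, at 10.41. Of 10 genes of arterial endothelium 6 were above (60%), with Efnb2 at 9.95 and Sox17 at 9.63. Another 2 were below, Unc5b at 6.22 and Gkn3 at 5.97, and 2 were neither, Hey1 at 7.21 and Bmx at 6.67. Of 5 genes of venous endothelium 3 were above (also 60%), namely Nr2f2, Ephb4 and Nrp2, and Vwf and Ackr1 were below. The call of Vwf rests on 3 equal values and was lost with the spread of the others (limma, adjusted p = 0.141). Of 10 proximal tubule genes 8 were above (80%) and 2 were neither. In the thick ascending limb Umod, Slc12a1 and Egf, 3 of 4 genes (75%), were above. For the distal tubule and collecting duct the share above was closer to the 22.9% of all genes. There 3 of 9 were above (33.3%), namely Slc12a3, Pvalb and Calb1. The same held for smooth muscle and pericytes, with 2 of 9 above (22.2%), namely Rgs5 and Notch3, 3 below and 4 neither. A signal of 100 or more in all 3 samples was held by 5 of these 9 distal genes and 4 of the 9 smooth muscle genes. Acta2 and Myh11 were neither, with means 3.97 and 3.52 times the limit (limma, adjusted p = 0.0747 and 0.108). Notch3 held 3 equal values and was not called with the spread of the others (adjusted p = 0.261). Ren1 was not analysed here, so no signal of the renin cells is set beside Gja5. The 5 leukocyte genes (Ptprc, Cd68, Csf1r, Cd3e and Cd79a) and 3 platelet genes (Itga2b, Pf4 and Ppbp) were below, where 65.0% of all genes also lay. The podocyte genes Nphs1 and Synpo were below too (66.7% of 3), whereas Podxl, a podocyte gene that endothelium also uses, was above. The paper itself reports a minor contamination of its cortical endothelial cells, because the genes it found specific to them resembled a proximal tubule profile. In a sorted population, more cells of a type and more RNA per cell cannot be told apart.

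The summed signals of these markers differed between the samples, and the connexins are given beside them. Over the proximal tubule genes, the linear signals summed to 14012, 12250 and 12454 in replicates 1 to 3. Kap made up much of each sum, and without it the sums were 5648, 4695 and 5887, with replicate 3 highest and replicate 2 lowest. Gjb2 changed by at most 0.04 on the log2 scale between the same samples, and Gjb1 held the same value. Replicates 1 and 3 of Gjb2 were equal in all decimals, and 79.5% of all genes held equal values in 2 or 3 samples. The proximal tubule gene Cubn also held the same value, 7.90, in the 3 samples. Small changes in these connexins therefore do not tell which cells their signal came from. Replicate 2 was the low sample for the thick ascending limb, with a summed signal of 2001 against 3260 and 2903 in replicates 1 and 3, and for the distal tubule and collecting duct, with 1546 against 2151 and 3307. It was also the low sample for Gja4 and for Gjb2. Their part in the signals of Gjb2, Gja1 and Gja4 was not tested.

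The smooth muscle and pericyte genes were highest in replicate 3, with a summed signal of 3671 against 1790 in replicate 1 and 1797 in replicate 2. Acta2 gave log2 values of 8.43, 7.97 and 9.50, and Myh11 had 7.79, 8.14 and 9.44. Gjc1, the connexin known from smooth muscle, was at 9.17 both in replicate 2 and in replicate 3. Gja1 was lowest in replicate 3, by 0.03 on the log2 scale. The part of these cells in the mean signal of Gjc1 was not tested. Over the endothelial markers the summed signal was 12416, 12910 and 10538 in replicates 1, 2 and 3. Without Emcn, the endothelial gene with the highest signal, it was 9401, 8917 and 8231, so which of replicates 1 and 2 is higher rests on that gene. Over the arterial genes it was 4172, 4685 and 5523, and 2982, 3010 and 3145 without Mgp. The part of these differences in the spread of Gja4 and Gja5 was not tested.

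**Figure D2:**
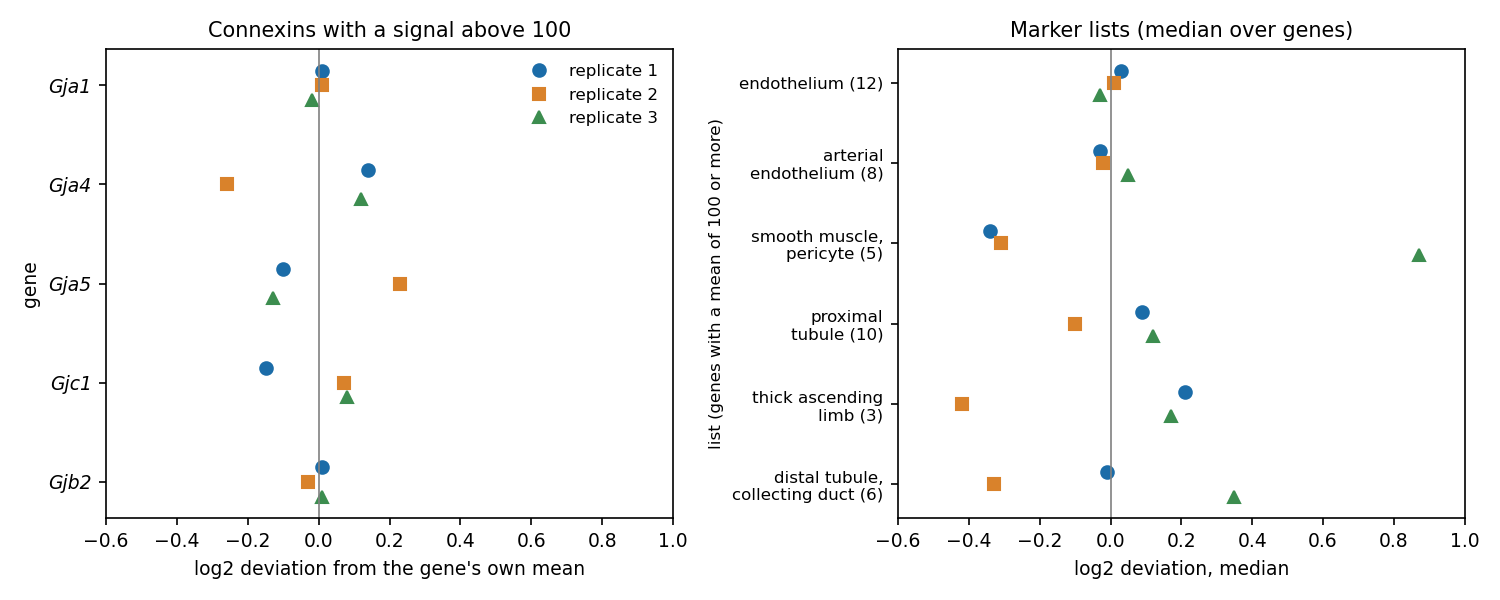
Left, log2 deviation of each replicate from the gene's own mean for the 5 connexins above a signal of 100; right, the median of such deviations over the genes of each marker list with a mean of 100 or more, with their number in parentheses. Replicate 2 deviates by -0.26 for Gja4 and by 0.23 for Gja5, and the smooth muscle and pericyte genes deviate by 0.87 in replicate 3.

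The rest of the family was mostly low. Of 12 further genes analysed, 9 connexins and 3 pannexins, 10 were below the limit and 2 above it, against 65.0% and 22.9% of all genes. The connexin above was Gjd3 (Cx30.2), at a log2 value of 7.16 in each sample, or 1.43 times the limit (limma, adjusted p = 2.12e-06). The pannexin above was Panx2, at 6.85 in each (limma, adjusted p = 6.61e-06). Both calls rest on 3 equal values and were lost when the spread of other probesets was put in place of an SD of 0, with adjusted p = 0.053 for Gjd3 and 0.344 for Panx2. Panx1, which forms ATP release channels in many cells, was below at 5.90 in each sample (limma, adjusted p = 6e-09).

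The other genes below the limit were Gja6, Gja10, Gjb5, Gjb6, Gjc3, Gjd2, Gjd4, Gje1 and Panx3. Their log2 signals ran from 3.84 for Gja10 to 5.65 for Gja6. Gjb6 (Cx30), which is found with Cx26 in the cochlea, had 4.74 in each sample, and Gjd2 (Cx36), the connexin of electrical synapses, had 4.96. Of the 12 measured genes, 11 held the same value in the 3 samples. Gjd4 and Panx3 shared the value 4.87 in all samples, as did 127 probesets in all, whereas the value of Gjd2 was held by no other probeset. Across the table the 3 samples were equal in 48.7% of the probesets with a mean under 100 and in 20.7% of those with a mean of 100 or more.

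**Figure D3:**
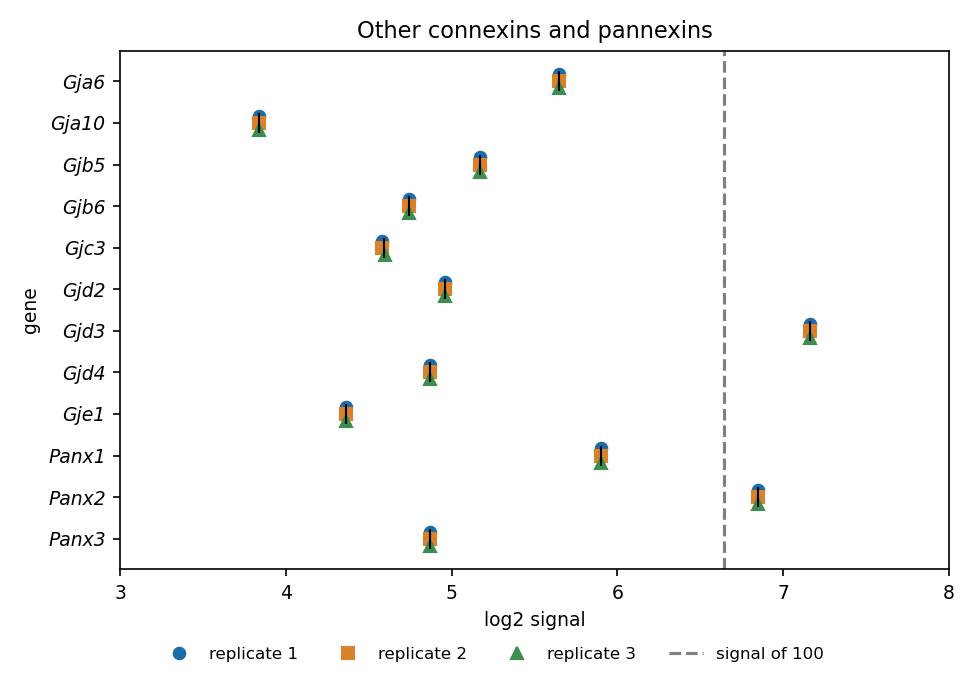
Log2 signal of 9 further connexins and 3 pannexins, with a point per replicate (drawn apart vertically), the mean as a tick and the SD as whiskers; the dashed line is a signal of 100. Gjd3 and Panx2 lie above the line and the other 10 genes below it, and in 11 of the 12 the 3 replicates coincide.

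Some connexin genes lie side by side in the mouse genome. On chromosome 14 Gja3, Gjb2 and Gjb6 are neighbors with no other protein-coding gene between them in the reference table, and of these Gjb2 was above the limit while Gja3 and Gjb6 were below it.

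Of 16 genes analysed whose products bind, move or modify connexins, 6 were above the limit (37.5%, against 22.9% of all genes), 7 below (43.8%, against 65.0%) and 3 neither. Tjp1, which encodes the scaffold ZO-1 that binds the tail of Cx43, gave a log2 value of 10.16 in each sample (limma, adjusted p = 1.68e-06). Cav1, which encodes caveolin-1, had 8.95 in replicates 1 and 2 and 8.93 in replicate 3, and Ctnnb1, which encodes β-catenin, had 9.05 in each. All 3 were above, whereas Dbn1 (drebrin), at 6.25 in each sample, and Cdh2 (N-cadherin), at 5.19, 5.19 and 5.89, were below. Cdh2 was no longer called without replicate 1 or without replicate 2 (limma, adjusted p = 0.105 for either).

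Among the genes of connexin trafficking and turnover, Nedd4, which encodes a ubiquitin ligase that acts on Cx43, was above at 10.63 in each sample (limma, adjusted p = 1.68e-06), as was Tsg101 at 8.06 ± 0.05 (SD, n = 3; limma, adjusted p = 0.000792). Tsg101, a protein of endosomal sorting, was no longer called without replicate 3 (adjusted p = 0.0563). Cnst, which encodes consortin, a sorting receptor for connexins, was below, with 5.96, 5.82 and 5.82. Ubqln4, whose product moves Cx43 to degradation, was below at 6.03, 5.82 and 5.82, though not without replicate 3 (limma, adjusted p = 0.0669). Sgsm3 was below at 6.52 throughout, but was not called with the spread of the other probesets (adjusted p = 0.261). Erp29, a chaperone gene, had 6.96, 6.96 and 6.56, on both sides of the limit, and was neither (limma, adjusted p = 0.493 on the upper side).

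The genes of kinases that phosphorylate Cx43 lay near or under the limit. Src was below at 6.15 in each sample and Prkca was below at 6.03, 5.74 and 5.42, though not without replicate 2 (limma, adjusted p = 0.111) or replicate 3 (0.0882). Mapk7 was above at 6.93 in each, a call that also ended with the spread of the others (adjusted p = 0.202). Csnk1d had 7.46, 6.92 and 6.92 and was neither (limma, adjusted p = 0.204 on the upper side). Ccn3, which encodes a secreted protein that binds Cx43, had 6.68, 6.91 and 6.36 and was neither, its mean lying at the limit.

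**Figure D4:**
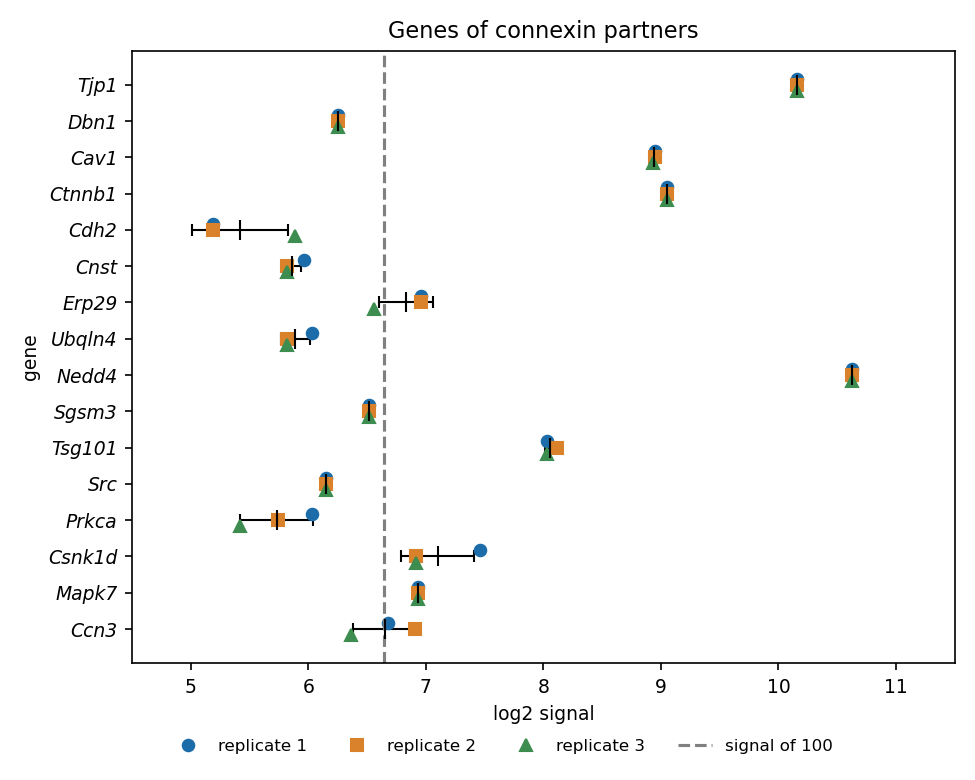
Log2 signal of 16 genes of connexin partners in the 3 samples, with a point per replicate (drawn apart vertically), the mean as a tick and the SD as whiskers; the dashed line is a signal of 100. Tjp1, Cav1, Ctnnb1, Nedd4 and Tsg101 lie clear of the line, with Mapk7 just above it, and Erp29 and Ccn3 have points on both sides.

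The medians of the deposited columns were 5.70, 5.70 and 5.66 on the log2 scale. The 3 pairs of columns had a Pearson's r of 0.941 to 0.95 over probesets (the probesets are no independent replicates). All 5 decimals were the same in the 3 samples for 40.5% of the probesets. Arrays carry no read depth, so each mean is only as precise as 3 arrays allow.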

How the data were processed

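Endothelial cells were sorted by FACS from adult renal cortex, and RNA of 3 samples was amplified in 1 round and hybridized to Affymetrix Mouse Gene 1.0 ST arrays. The authors deposited log2 signals for 35557 probesets, which had been summarised per probeset and scaled between arrays. RMA is the method the paper names, in GeneSpring GX, while the submitters' processing notes name Affymetrix Expression Console. The program's version, the build and which arrays were scaled together were not given in the sources used here. Quantile-based normalization fixes the distribution of each column, so a shift common to all genes cannot be seen.

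The probe table gave 21789 probesets 1 gene, 1621 several genes and 12147 none, and a gene was taken at its probeset with the highest mean log2. The distance of each log2 value from log2 of 100 was fitted with an intercept alone (limma 3.58.1, R 4.3.3) and moderated along a mean-variance trend (2 residual and 0.297 prior degrees of freedom), and each mean was tested one-sided in both directions. The test was run on simulated data, with spreads drawn only from probesets whose SD was above 0. That check therefore does not cover probesets with 3 equal values, and its outcome is not reported here. Alternatives were limits of 50 and 200, no test, quantile or median scaling, no trend, the lowest probeset, 2 filters on the features tested, each replicate left out, and probesets with 3 equal values given the median spread of the others in 20 bins of mean. Promoter windows were searched in Python 3.11.15 (pandas 2.3.3). The genes named are the 7 connexins, the other connexins and pannexins, every partner gene and up to 4 genes per marker list in written order, with genes that make up a count of 5 or fewer. Not every gene of this rule is named, and some genes of these lists are not reported here. The members and lists were chosen with earlier results of these data known.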

Additional observations from a re-analysis of the deposited data

How the results depend on the processing

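Of the 7 connexins, 5 were called above and 2 below when the limit was 200, with quantile or median scaling, without a trend, with the spread of the others for equal values, and with either filter on the features tested. In the setting for equal values the SD of Gjb1 alone was replaced, since no other member held 3 equal values. Without 1 replicate, from 2 to 5 were above and 2 below. The lowest count, without replicate 3, lost Gja4, Gja5 and Gjc1, and without replicate 1 Gja4 was lost. Fits to 2 samples have 1 degree of freedom less. With a limit of 50, limma called 0 connexins below (also 0 by unadjusted p under 0.05), and Gjb1 (adjusted p = 1e-07) and Gja3 (limma, adjusted p = 0.000173) were above.

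Of the other gap junction genes, 4 were above a limit of 50, 0 above 200 and 0 above 100 with the spread of the others for equal values (by limma, 0 and 1 at an unadjusted p under 0.05). With only probesets of a mean of 50 or more tested, 2 were below, since most of these genes then drop out. Of the partners, 13 were above and 0 below a limit of 50 by limma (0 at an unadjusted p under 0.05), and 11 were below 200. No paired analysis was possible because the 3 samples form 1 group. The number of arrays limits the precision, and signals near 100 depend on the limit chosen.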
